A study of Arabidopsis thaliana with 9 samples.

Results

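PDF1.2, PDF1.2b and AT4G22212 are 3 Arabidopsis genes for plant defensins or defensin-like peptides, and each is read by 1 of the 22810 probe sets on the array. They were picked by the gene names in the probe annotation, after their signals in these lines were known, so their levels and fold changes are given as a description with no p-value. The study set out to learn what lies behind the phenotypes of the lines iae1 and iae2, and measured RNA of these lines and of the line B1798 with 9 Affymetrix ATH1 arrays, 3 for each line. All lines carry the Ler ecotype, and the labels give no mutation, transgene or treatment for any of them. Seedling material (cotyledons, hypocotyl, crown and the bud of the apical meristem) was taken at growth stage 1.0 from plants given 1% sucrose in a growth room, and 30 plants were pooled, without a statement of whether this holds per array. B1798 serves here as the line of comparison because it has no iae name, although no label calls it a control.

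Plant defensins are small, secreted peptides held together by disulfide bonds between conserved cysteines, and many of them stop fungal growth. PDF1.2 is the standard marker of the jasmonate and ethylene branch of plant defence: both hormones act together through the ethylene response factors ORA59 and ERF1 to switch it on, and salicylate holds it down with the help of glutaredoxins such as GRX480 and of TGA factors. PDF1.2b and PDF1.2c encode near-identical copies of the PDF1.2 peptide, whereas AT4G22212 belongs to the wider group of defensin-like peptides and has no such established role in this pathway.

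In iae2 both PDF1.2 genes had higher signals than in B1798 and AT4G22212 had a lower one. In iae1 all 3 had higher signals than in B1798. PDF1.2 differed most between iae2 and B1798, where its mean signal was 7.50 times as high, and AT4G22212 was the gene on which the 2 iae lines differed in direction. Because whole seedling parts were ground up, a change in the number of cells that make a transcript and a change in the RNA made per cell cannot be told apart.

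PDF1.2 is the ERF-driven defensin gene itself. Its deposited signals, which are linear intensities, were 222.5, 197.1 and 218.0 on the iae2 arrays, 72.9, 66.4 and 73.2 on the iae1 arrays, and 25.8, 27.2 and 32.0 on the B1798 arrays. Every iae2 array lay above every iae1 array, every iae1 array lay above every B1798 array, and no neighbours in this order overlapped. The means were 212.5 ± 13.6 in iae2, 70.8 ± 3.84 in iae1 and 28.3 ± 3.25 in B1798 (SD, n = 3 each). On the log2(signal + 16) scale, which understates changes of dim genes, the difference was 2.37 ± 0.10 between iae2 and B1798, 0.97 ± 0.10 between iae1 and B1798 and 1.4 ± 0.10 between iae2 and iae1 (SE from the limma fit to all 9 arrays). Between iae2 and B1798 only 9 of the 14404 tested probe sets had a larger rise, since PDF1.2 ranked 10, and its rank between iae1 and B1798 was 51. With a pseudocount of 64 the difference between iae1 and B1798 shrank to 0.55, since the B1798 signals sit near the filter level of 23.2 to 26.0 below which a signal counted as dim.

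PDF1.2b is the copy of PDF1.2 on chromosome 2, and its probe set is of a kind that can also bind related transcripts. Its signals were 464.3, 440.9 and 643.2 in iae2, 294.3, 404.0 and 546.5 in iae1, and 115.3, 165.0 and 144.9 in B1798. Both iae lines lay above B1798 on all arrays, while the iae2 and iae1 arrays overlapped. At each replicate number the iae2 signal was above the iae1 signal, although no pairing of replicates was modelled. The means were 516.1 ± 110.7 in iae2, 414.9 ± 126.5 in iae1 and 141.7 ± 25 in B1798 (SD, n = 3 each). Relative to its mean, PDF1.2b was the most variable of the 3 genes within each line. Its log2 differences were 1.75 ± 0.18 between iae2 and B1798, 1.42 ± 0.18 between iae1 and B1798 and 0.33 ± 0.18 between iae2 and iae1. In iae1 the highest value came from replicate 3, whose scanner background of 67.81 was above the 53.49 to 62.98 of the other arrays, and without that array the iae1 difference was 1.21. In iae2 the highest value also came from replicate 3, whose scanner background of 59.73 was the lowest of the iae2 arrays. Whether the scanner background has a part in the PDF1.2b values was not tested.

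AT4G22212 lies on chromosome 4 between LCR85 (AT4G22210), a low-molecular-weight cysteine-rich gene, and AT4G22214. It had signals of 291.2, 312.8 and 309.2 in iae2, 894.6, 1008.7 and 1128.8 in iae1, and 415.9, 366.0 and 454.5 in B1798. Here iae1 was the high line and iae2 the low one, with B1798 in between and no overlap between any neighbours. The means were 304.4 ± 11.6 in iae2, 1011 ± 117 in iae1 and 412.1 ± 44.4 in B1798 (SD, n = 3 each). Its log2 difference was -0.41 ± 0.09 between iae2 and B1798, 1.26 ± 0.09 between iae1 and B1798 and -1.67 ± 0.09 between iae2 and iae1. The last of these ranked 12 among the falls of all tested probe sets, and the fall between iae2 and B1798 ranked 635.

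**Figure D1:**
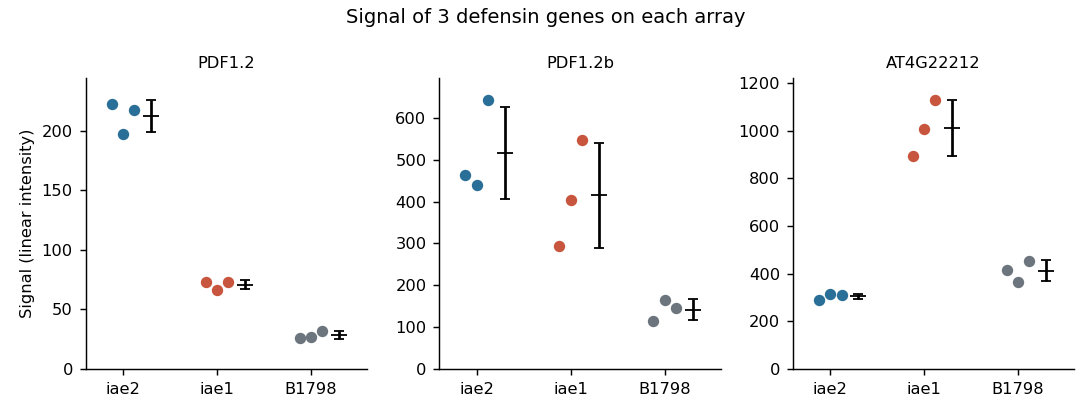
Signal (linear intensity, vertical axis from 0, a scale of its own for each gene) of PDF1.2, PDF1.2b and AT4G22212 on every array of iae2, iae1 and B1798. Points are arrays, and the bar beside them is the mean with 1 SD (n = 3). PDF1.2 steps down from iae2 to B1798 without overlap, the iae lines overlap for PDF1.2b, and AT4G22212 is highest in iae1.

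Between iae2 and B1798 the arrays were fully apart for all 3 genes (2 higher and 1 lower), as they were for 33.3% of all tested probe sets (17.6% higher and 15.8% lower). Between iae1 and B1798 all 3 genes were higher on every array, as were 13.0% of the tested probe sets. Between iae2 and iae1 the arrays were apart for 2 of the 3 genes (1 higher and 1 lower) and for 35.8% of the probe sets (17.7% higher and 18.1% lower). The choice of the genes used these contrasts, so nothing is read from the comparison. The order seen for PDF1.2, with iae2 highest and B1798 lowest, was found without overlap for 203 probe sets (1.41%), and the order seen for AT4G22212, with iae1 highest and iae2 lowest, for 216 (1.5%). All iae arrays lay above all B1798 arrays for 722 probe sets (5.01%), among them PDF1.2 and PDF1.2b. The comparisons of iae2 and iae1 with B1798 share the B1798 arrays, so a gene that happened to be low on these 3 arrays would appear raised in both.

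Several properties of the arrays moved with the lines. The ratio of the 3′ to the 5′ GAPDH probe sets, which grows as RNA breaks down, was 1.73 to 1.98 in iae2, 2.32 to 2.48 in iae1 and 2.28 to 3.11 in B1798. The iae2 arrays lay below all others (two-sided exact permutation p = 0.1 against either line, the smallest that 3 arrays against 3 can give). The same ratio for actin did not set iae2 apart, at 4.02 to 7.56 in iae2, 6.38 to 7.2 in iae1 and 5.76 to 9.84 in B1798. Its exact permutation p was 0.2 for iae2 against B1798 and 0.5 against iae1. With the GAPDH ratio as a covariate the difference between iae2 and B1798 was 2.51 for PDF1.2, 2.05 for PDF1.2b and -0.37 for AT4G22212. The SEs were 0.18, 0.35 and 0.19 with the covariate, and 0.10, 0.18 and 0.09 without it. Because the iae2 ratios overlap those of neither other line, this fit cannot fully separate the ratio from the line, and nothing is concluded from it. The 25S rRNA signal set iae1 apart, at 1666 to 3528 in iae2, 4415 to 5147 in iae1 and 3246 to 4068 in B1798 (two-sided exact permutation p = 0.1 for iae1 against either line). The signals of 4 green-tissue genes (LHCB4.2, RCA, PRK and SBPASE, of 11 listed) summed to 6940 to 7580 in iae2, 5776 to 6481 in iae1 and 5769 to 6170 in B1798. Most of the excess in iae2 was LHCB4.2, at 2679 in iae2, 1479 in iae1 and 1773 in B1798 on average, whereas RCA averaged 2695 in iae2, 2935 in iae1 and 2679 in B1798. Of the meristem genes LAS and CLV3 (2 of 5 listed), CLV3 stayed at 8.3 or below on all arrays, and their sum was 33.4 to 47.7 in iae2, 36.6 to 47.0 in iae1 and 31.8 to 40.2 in B1798. PYK10, EXPA7 and AT5G17820, genes of roots and hypocotyls (3 of 5 listed), summed to 3325 to 3684 in iae2, 3972 to 4209 in iae1 and 4008 to 4471 in B1798, and nearly all of it was PYK10. The other root genes measured were not lower in iae2 than in B1798. EXPA7 averaged 38.7 in iae2, 33.2 in iae1 and 27.7 in B1798, and AT5G17820 averaged 69.1 in iae2, 78.9 in iae1 and 50.7 in B1798. A flower and pollen list had a named probe set for 1 of 7 genes, AT5G10130, at 13.0 to 27.0 over all arrays. Of the seed list only PDF1.1, described with the defensins, had a named probe set. The part of RNA quality, of the rRNA signal or of tissue makeup in the values of the 3 genes was not tested.

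The other defensin genes were a family list of 16 loci, to which the annotation added LCR24. Of the relatives, 11 had a named probe set and 5 of these passed the filter on dim signals: PDF1.1, PDF1.4, PDF2.2, PDF2.3 and PDF2.5. PDF1.2c, PDF1.3 and PDF1.5 had no probe set named in the annotation used here, so the immediate neighbour of PDF1.2 (PDF1.2c) and that of PDF1.2b (PDF1.3) were not analysed here. Between iae2 and B1798, 2 of the 5 relatives rose and 1 fell, beside 17.8% of all tested probe sets called (9.77% higher and 7.99% lower). Their median log2 difference of 0.52 was the value of PDF1.1 itself, which passed the filter through its iae1 arrays alone. This median is therefore not read against the 0.003 over all. Between iae1 and B1798 the only one of the 5 to pass was PDF1.1, which was higher but had reached the test through its iae1 signals alone, so it is not read against the 7.21% called (3.8% higher and 3.42% lower), and the median was 0.14 beside 0.009. Between iae2 and iae1, 1 rose and 1 fell, beside 19.6% called (10.2% higher and 9.44% lower), with a median of -0.22 beside -0.004. Each of these medians includes PDF1.1.

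PDF1.4 is a defensin of the same subfamily as PDF1.2. Its signals were 273.8, 247.3 and 311.5 in iae2, 613.2, 602.1 and 516.2 in iae1, and 513.5, 477.2 and 587.0 in B1798. All iae2 arrays lay below all others, and the iae1 and B1798 arrays overlapped. PDF1.4 fell in iae2 against B1798 by 0.89 on the log2 scale (SE 0.10, limma adjusted p = 1.38e-05), and it was lower in iae2 than in iae1 by a log2 difference of -1.02 (adjusted p = 3.00e-06 in limma). With the GAPDH ratio as a covariate the fall against B1798 was -0.66 and no longer passed (adjusted p = 0.0683 in limma). Between iae1 and B1798 the difference was 0.13 (adjusted p = 0.501 in limma). PDF1.4 was thus lowest in the line where PDF1.2 was highest.

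PDF2.3 encodes a defensin of the second subfamily, and it stands next to PDF2.1 and PDF2.6 in the gene order of chromosome 2. Its signals were 1061.1, 1016.1 and 1034.1 in iae2, 680.7, 623.5 and 651.9 in iae1, and 657.0, 585.4 and 665.0 in B1798. The iae2 arrays were apart from all others, and the iae1 and B1798 arrays overlapped. PDF2.3 rose in iae2 by 0.69 against B1798 (SE 0.07, adjusted p = 7.95e-06 in limma) and by 0.66 against iae1 (adjusted p = 1.32e-05 in limma), and both calls held in all 22 other settings tried. The difference between iae1 and B1798 was 0.04 (adjusted p = 0.827 in limma). PDF2.2, whose gene lies close by, had signals of 1146.4, 1458.8 and 1367.3 in iae2, 1630.4, 1453.6 and 1522.4 in iae1, and 1301.4, 1388.9 and 1489.1 in B1798. The 3 lines overlapped, and PDF2.2 passed no test, with log2 differences of -0.08 between iae2 and B1798 and 0.14 between iae1 and B1798.

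PDF2.5 was dim, with signals of 41.7, 36.2 and 50.6 in iae2, 45.1, 31.3 and 27.3 in iae1, and 13.9, 21.8 and 30.1 in B1798. The iae2 arrays lay above the B1798 arrays, and iae1 overlapped both. PDF2.5 rose in iae2 by 0.65 (SE 0.17, adjusted p = 0.0149 in limma), and the call was lost without iae2 replicate 3 (adjusted p = 0.0719), without B1798 replicate 1 (0.0680) and with no filter (0.0582). Its size moved between 0.32 with a pseudocount of 64 and 1.32 with the GAPDH covariate, and only 1 of the 3 B1798 arrays was above the filter level for this gene. Against B1798 the iae1 difference was 0.42 (adjusted p = 0.163 in limma), and with the GAPDH covariate it was 0.66 and passed (adjusted p = 0.0326 in limma).

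PDF1.1, known as a defensin of seeds, had signals of 22.6, 15.0 and 19.3 in iae2, 29.3, 30.4 and 26.8 in iae1, and 14.7, 9.3 and 2.6 in B1798. The 3 lines did not overlap and iae1 was highest. It passed the filter through its 3 iae1 arrays alone, so its call between iae1 and B1798 (log2 difference 0.88, adjusted p = 0.00613 in limma) supports nothing by itself. That difference was 1.48 with a pseudocount of 4 and 0.35 with 64, and with the GAPDH covariate it was 0.65 and did not pass (adjusted p = 0.0505 in limma). Between iae2 and B1798 the difference was 0.52 (adjusted p = 0.0550 in limma), and with the GAPDH covariate it turned to -0.14 (adjusted p = 0.870 in limma) and without B1798 replicate 3 it was 0.32. All its signals lay close to or below the filter level.

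The other 6 relatives, PDF2.1, PDF2.4, PDF2.6, PDF3.1, PDF3.2 and LCR24, reached the filter level on no array and were not tested. Among them PDF2.1 had signals of 21.2, 13.9 and 23.7 in iae2, 13.4, 17.2 and 1.0 in iae1, and 2.7, 0.9 and 1.4 in B1798. Its iae2 and B1798 arrays did not overlap, at signals below the filter level throughout. PDF3.1 and PDF3.2 stayed at or below 3.7 on all arrays.

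**Figure D2:**
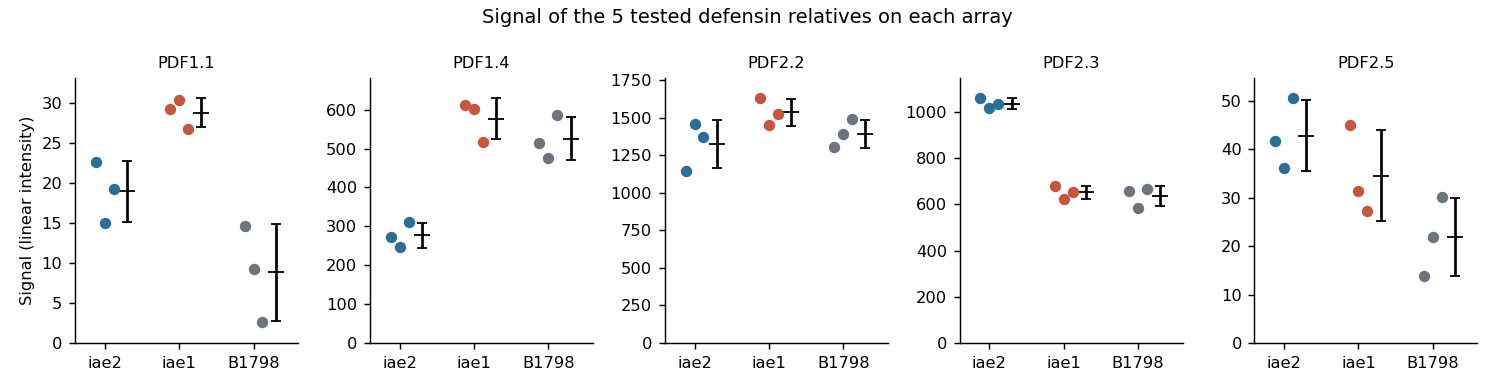
Signal (linear intensity, vertical axis from 0, a scale of its own for each gene) of the 5 tested defensin relatives on every array of iae2, iae1 and B1798. Points are arrays, and the bar beside them is the mean with 1 SD (n = 3). PDF1.4 is low and PDF2.3 is high in iae2, PDF2.2 overlaps between lines, and PDF1.1 and PDF2.5 are dim.

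**Figure D3:**
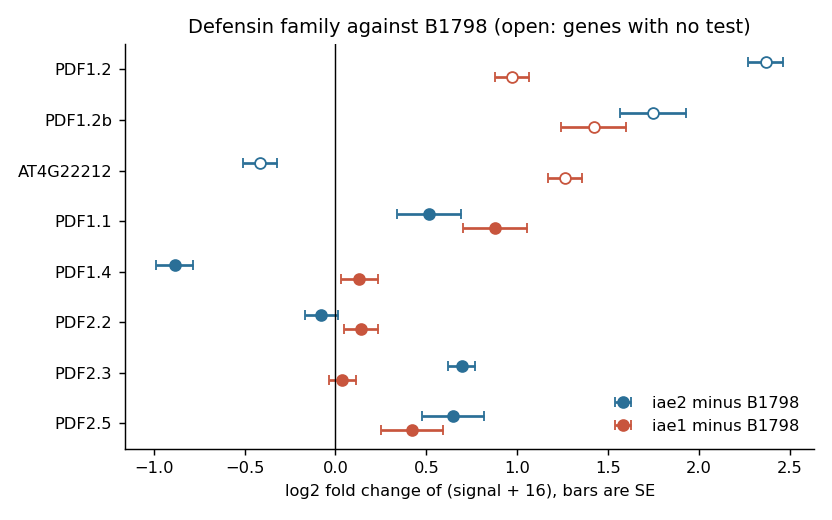
Log2 difference of (signal + 16) against B1798 (horizontal axis) for the 3 genes described, drawn open because they have no test, and for the 5 tested relatives, drawn filled. Blue marks iae2 minus B1798 and red marks iae1 minus B1798, with bars of 1 SE from the limma fit. AT4G22212 and PDF1.4 lie below 0 in iae2, where PDF1.2, PDF1.2b, PDF2.3 and PDF2.5 lie above it.

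The genes that control or accompany PDF1.2 were poorly covered by the annotation used here, which names 1 gene for 13513 of the 22810 probe sets. Of 78 loci on lists of jasmonate synthesis and JAZ repressors, ethylene and ERF regulators, salicylate genes and targets of the ERF and MYC branches, 5 had a named probe set, and all 5 were tested. None of the 23 jasmonate genes was among them, and neither were ORA59 and ERF1. The array may still carry probe sets for these genes that the annotation does not name. In iae2 against B1798, 3 of the 5 fell and none rose, beside 7.99% lower and 9.77% higher among all tested probe sets, and in iae1 against B1798, 1 fell, beside 3.42% lower.

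EIN3, the transcription factor that turns the ethylene signal into gene expression, had signals of 323.3, 339.8 and 322.6 in iae2, 407.4, 411.5 and 341.5 in iae1, and 392.0, 383.9 and 409.3 in B1798. The iae2 arrays lay just below all others. EIN3 fell in iae2 against B1798 by 0.25 on the log2 scale (SE 0.08, adjusted p = 0.0412 in limma), a call that was lost when any 1 of the iae2 or B1798 arrays was left out (adjusted p between 0.0642 and 0.113) and with the GAPDH covariate (log2 difference -0.155, adjusted p = 0.680). Between iae1 and B1798 the difference was -0.03 (adjusted p = 0.860 in limma).

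GRX480, the glutaredoxin through which salicylate acts on PDF1.2, had signals of 104.0, 111.3 and 92.1 in iae2, 99.2, 105.7 and 130.1 in iae1, and 144.2, 163.3 and 118.4 in B1798. The iae2 arrays were below the B1798 arrays, and iae1 overlapped both. GRX480 fell in iae2 by 0.41 (SE 0.12, adjusted p = 0.0250 in limma), but the call was lost when B1798 replicate 1 or 2, or iae2 replicate 1 or 3, was left out (adjusted p between 0.0569 and 0.122). With the GAPDH covariate the difference was larger, at -0.69, with a larger SE of 0.22, and did not pass (adjusted p = 0.111 in limma). The iae1 difference was -0.30 (adjusted p = 0.142 in limma).

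OSM34, an osmotin-like antifungal protein on the list of ERF targets, had signals of 829.0, 839.4 and 794.8 in iae2, 1114.3, 775.0 and 737.6 in iae1, and 753.4, 625.2 and 579.2 in B1798. The iae2 arrays lay above the B1798 arrays, and iae1 overlapped both. Its log2 differences of 0.33 between iae2 and B1798 and 0.40 between iae1 and B1798 did not pass (adjusted p = 0.0902 and 0.0749 in limma). With the GAPDH covariate the iae2 difference was 0.03. In 4 of 22 other settings the iae2 difference did pass (smallest adjusted p = 0.02 in limma). The iae1 difference passed in 3 of 22 (smallest adjusted p = 0.0276 in limma). SAG101, a partner of EDS1 in salicylate-linked immunity, had signals between 26.3 and 37.6 over all arrays and passed no test.

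Thionins are another class of small antimicrobial peptides, and THI2.1 is the jasmonate-responsive one. It had signals of 189.2, 172.4 and 165.3 in iae2, 330.6, 313.4 and 303.0 in iae1, and 388.7, 368.0 and 394.8 in B1798. The lines stood in the opposite order to that of PDF1.2, with no overlap. THI2.1 fell in iae2 by 1.06 on the log2 scale (SE 0.08, adjusted p = 1.39e-07 in limma). In iae1 it fell by 0.27 (adjusted p = 0.0460 in limma), a call lost in 14 of 22 other settings, among them the omission of any 1 iae1 or B1798 array (adjusted p between 0.0620 and 0.153). The thionin gene AT1G66100 was at 483.3 to 553.6 in iae2 and below the filter level in iae1 and B1798, at 10.1 or below, so it passed the filter through its iae2 arrays alone and is given by its signals, with no test. THI2.2 was too dim to test.

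The genes whose signals over the 9 arrays ran most like those of the 3 defensin genes were found by the root mean square (RMS) difference of the log2(signal + 16) values after each gene was centred on its own mean. This measure mostly reflects the differences between the lines, so the values of these genes are a description. Only the 7853 of the 14404 tested probe sets with 1 gene named in the annotation were searched. For PDF1.2, whose own RMS spread was 0.97, the nearest were AT5G55790 (RMS difference 0.27), AT2G33850 (0.35), AT1G12400 (0.37), AT2G33220 (0.39) and AT4G20480 (0.39). AT5G55790 had mean signals of 64.3 ± 8.62 in iae2, 21.3 ± 1.79 in iae1 and 7.10 ± 4.92 in B1798 (SD, n = 3 each). Its lines stood in the order of PDF1.2, but all its iae1 and B1798 signals lay below the filter level. AT5G55790 and AT1G12400 passed the filter through their iae2 arrays alone, so their step from B1798 to iae1 is not read. AT2G33220 and AT4G20480 matched PDF1.2 chiefly in iae2: the iae1 and B1798 arrays overlapped for both.

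For PDF1.2b, with an RMS spread of 0.80, the nearest were RALFL27 (0.34), which encodes a RALF-like signal peptide, AT3G25930 (0.39), the class III peroxidase gene AT4G26010 (0.42), AT1G22440 (0.45) and again AT5G55790 (0.46). RALFL27 had mean signals of 29.8 ± 3.00 in iae2, 26.4 ± 5.72 in iae1 and 2.30 ± 1.15 in B1798 (SD, n = 3 each), so it was near background in B1798. It passed the filter through arrays of the iae lines alone, so its step from B1798 to these lines is not read. AT4G26010 had means of 89.7 ± 9.97 in iae2, 74.6 ± 6.72 in iae1 and 25.8 ± 6.79 in B1798. In both genes the iae2 and iae1 arrays overlapped, as for PDF1.2b. The B1798 arrays of AT4G26010 lay apart from those of both iae lines.

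For AT4G22212, with an RMS spread of 0.72, the nearest was AT5G35940 (0.15), a gene of the jacalin-lectin family, followed by AT3G46270 (0.19), AT3G22570 (0.22), a gene of the lipid-transfer protein family, AT5G04120 (0.25) and AT5G03090 (0.28). AT3G46270 and AT5G03090 lay below the filter level in iae2 and B1798 and passed it through their iae1 arrays alone. AT5G35940 had signals of 63.7, 66.6 and 77.1 in iae2, 232.2, 288.3 and 254.0 in iae1, and 94.0, 107.0 and 91.2 in B1798. It repeated the order of AT4G22212 without overlap, with a log2 difference of 1.27 between iae1 and B1798 and -0.41 between iae2 and B1798, beside 1.26 and -0.41 for AT4G22212. Among the genes searched, none was listed as nearest to both AT4G22212 and either PDF1.2 gene.

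**Figure D4:**
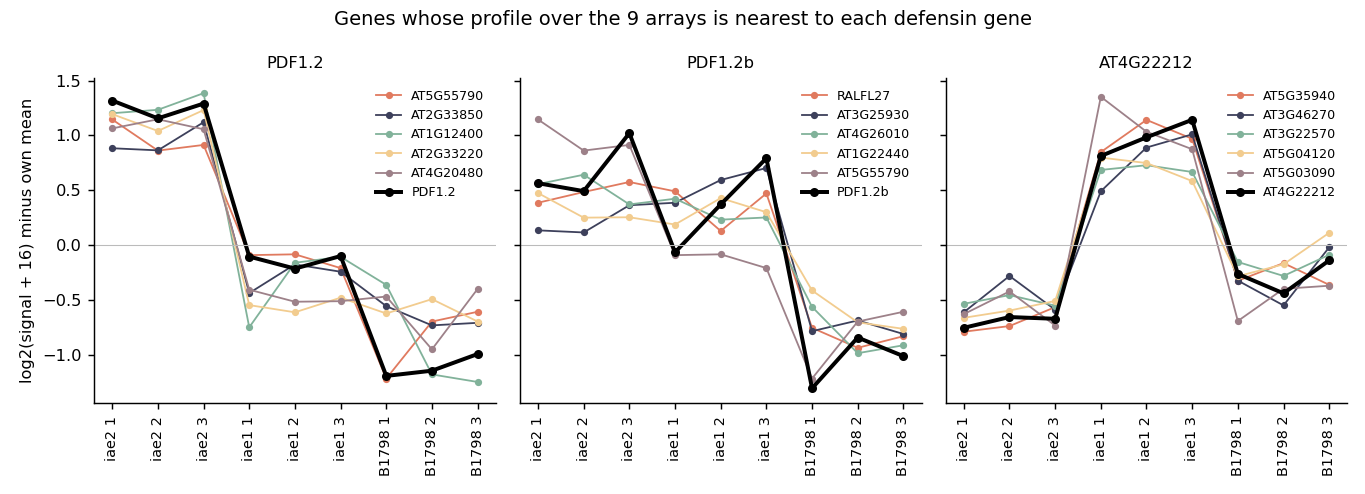
Log2(signal + 16) minus the gene's own mean over the 9 arrays (vertical axis) on each array of iae2, iae1 and B1798 for the 3 defensin genes (black) and for the 5 genes nearest to each (coloured). Lines between arrays only help the eye, since replicates have no order. The genes nearest to PDF1.2 are high in iae2, those nearest to PDF1.2b are low in B1798, and those nearest to AT4G22212 are high in iae1.

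The genes beside the 3 defensin genes on the chromosomes were looked at after the signals of the 3 were known. Neighbours were taken only from the 7853 tested probe sets with 1 gene named, so nearer genes without such a probe set were passed over. Among the 5 nearest of these on either side of each, 30 in all, 5 were called between iae2 and B1798 (1 higher and 4 lower). Between iae1 and B1798, 2 of the 30 were called (both lower). Of all tested probe sets, 17.8% and 7.21% were called in these contrasts. No neighbour of PDF1.2b passed in any contrast, although 1 of the 10, AT2G25980, was just over the threshold in iae2 (log2 difference 0.44). Next to PDF1.2, AT5G44400 and AT5G44380, which encode berberine bridge enzyme-like proteins, differed in direction. AT5G44400 had signals of 101.7, 74.4 and 75.4 in iae2, 54.7, 55.3 and 43.8 in iae1, and 42.4, 21.9 and 34.5 in B1798. Its 3 lines stood in the order of PDF1.2 without overlap. It rose in iae2 by 1.04 (adjusted p = 0.000183 in limma), and with the GAPDH covariate the difference was 0.72 and did not pass (adjusted p = 0.219). AT5G44380 had signals of 136.7, 118.4 and 97.8 in iae2, 239.4, 207.8 and 209.1 in iae1, and 169.0, 179.1 and 159.0 in B1798. Here iae1 was the high line and iae2 the low one, again without overlap. It fell in iae2 by 0.48 (adjusted p = 0.00432 in limma), and with the GAPDH covariate the difference was -0.63 and did not pass (adjusted p = 0.114). For AT4G22212 the neighbours called between iae1 and B1798 were AT4G22160 (log2 difference -0.34) and ISU1, an iron-sulfur cluster scaffold gene (-0.42), both in the direction opposite to that of AT4G22212. Their adjusted p was 0.0241 and 0.0320 in limma, and the calls were lost in 6 and 8 of 22 other settings. Those called between iae2 and B1798 were AT4G22190 (-0.41) and AT4G22280 (-0.37), both lower, as AT4G22212 was. Their adjusted p was 0.0170 and 0.0287 in limma, and the calls were lost in 5 and 6 of 22 other settings.

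**Figure D5:**
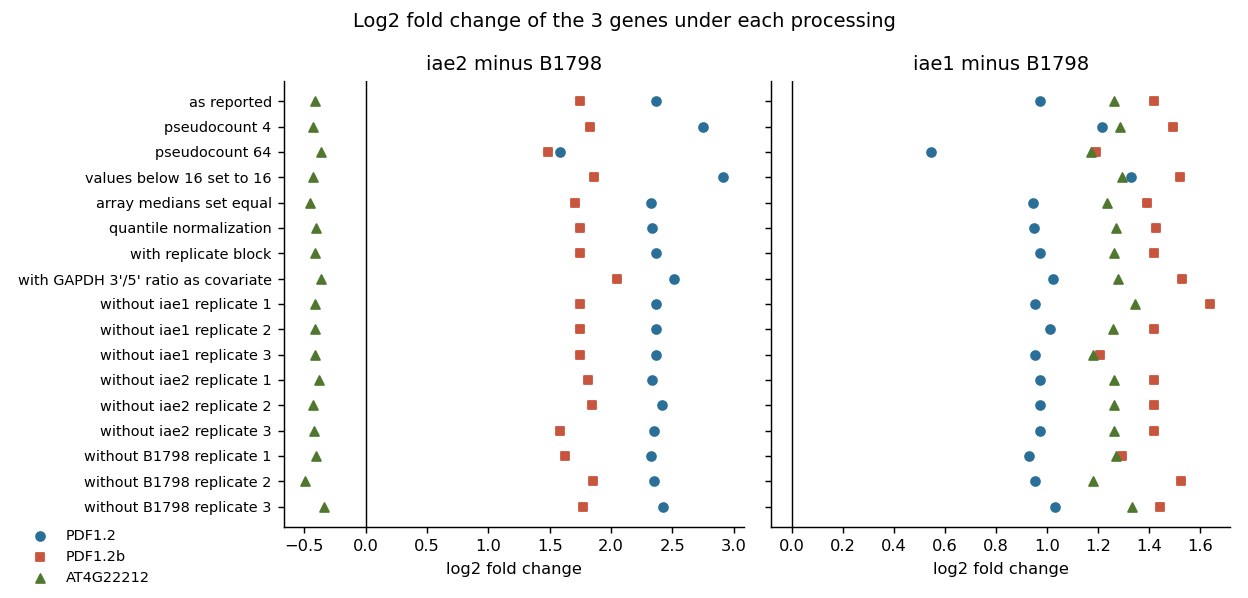
Log2 difference (horizontal axis) of PDF1.2, PDF1.2b and AT4G22212 between iae2 and B1798 (left) and between iae1 and B1798 (right) as reported and under each of 16 other settings (rows), each marker 1 gene. AT4G22212 stays below 0 in iae2 and above 0 in iae1 in all of them, and PDF1.2 moves most with the pseudocount. Since these arrays do not overlap, a pseudocount, a floor or an omitted array could not change the sign.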

How the data were processed

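Per the labels, a phenol and SDS method gave the total RNA, from which oligo-dT priming and in vitro transcription made biotin-labelled cRNA. The values used are the authors' deposited signals, 1 linear intensity per probe set and array. The algorithm that made them and the genome build are not given in the sources used here. Each array had a mean of 100 after 2 percent of its probe sets were trimmed at either end, so the deposited intensities had been scaled, and array medians were 35.9 to 38.5.

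The 64 control probe sets were left out. Testing required a signal no lower than the array's 40th percentile on at least 3 arrays, which kept 14404 of 22746 probe sets. One model with a mean for each line, on log2(signal + 16), took in the 9 arrays (limma 3.58.1, R 4.3.3), its prior variance was allowed to follow the intensity, and p-values were adjusted by Benjamini and Hochberg within a contrast. A call is an adjusted p below 0.05 in this two-sided moderated test. Calls split 1407 higher and 1151 lower between iae2 and B1798 and 547 and 492 between iae1 and B1798, and with array medians set equal 1155 and 1451, and 430 and 584. On simulated data for iae1 against B1798 over 14404 probe sets, 94 of 100 changes of 1.0 on the log2 scale and 58 of 100 of 0.5 were recovered, with 8 false calls. The simulated noise was normal and independent between probe sets and arrays, with no line-wide shift such as that of the GAPDH ratio. These counts check the fit and are not an error rate for the real arrays. The number of arrays limits the precision.

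The members and the gene lists were chosen with earlier results of these data known. Named genes are the 3 defensin genes, every annotated defensin or LCR gene, list genes called in a contrast or with the smallest adjusted p, and the 5 nearest profiles of each. Gene names come from the platform annotation, and locus names and gene order from a TAIR10.1 gene table. PDF1.1, PDF2.2, PDF2.3, PDF2.4, PDF2.6, PDF3.1 and PDF3.2 carry LCR symbols there. Replicates are numbered in the labels and not described as separate cultures, so the p-values rest on variation that could be purely technical. Arrays of 1 line correlated at 0.985 to 0.99, and no 2 arrays were identical. Other pseudocounts, a floor, scalings, filters, variance settings, a replicate block, a GAPDH covariate, a stricter threshold and the omission of each array were tried.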

Additional observations from a re-analysis of the deposited data

How the results depend on the processing

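No difference of PDF1.2, PDF1.2b or AT4G22212 changed sign under the 16 settings that apply to them. This was largely fixed in advance. Where the arrays of 2 lines do not overlap, another pseudocount, a floor or the omission of an array cannot reverse the sign. The replicate block, and the omission of an array of the line not compared, leave the difference as it was. The kept signs are therefore not read as support, and only the sizes are described. The difference of PDF1.2 from B1798 in iae2 was 2.75 with a pseudocount of 4, 1.58 with 64, 2.91 with signals below 16 set to 16 and 2.51 with the GAPDH ratio as a covariate. In iae1 it was 1.21 with a pseudocount of 4, 0.55 with 64 and 1.33 with the floor. Between iae2 and iae1 it was 1.53, 1.04, 1.59 and 1.49 in the order given first. PDF1.2b was at 2.05 in iae2 with the GAPDH covariate, and AT4G22212 at -1.54 between iae2 and iae1 with a pseudocount of 64. Leaving out each array in turn gave 2.33 to 2.43 (iae2), 0.93 to 1.03 (iae1) and 1.36 to 1.45 (iae2 minus iae1) for PDF1.2, 1.58 to 1.85, 1.21 to 1.64 and 0.11 to 0.54 for PDF1.2b, and -0.49 to -0.34, 1.18 to 1.34 and -1.76 to -1.59 for AT4G22212. The causes of these shifts were not tested, apart from the pseudocount, whose own construction shrinks the change of dim genes.

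Over all probe sets, the 2558 calls between iae2 and B1798 became 526 with the GAPDH covariate and 1443 at an adjusted p below 0.01, and 1947 to 2519 with 1 array left out. The 1039 calls between iae1 and B1798 became 645 and 443, and 615 to 1026 with 1 array left out (615 without B1798 replicate 2, 650 without iae1 replicate 3). The 2825 between iae2 and iae1 became 1470 and 1576, and 2010 to 2933. Setting array medians equal lowered the share of higher calls to 44.3% (iae2) and 42.4% (iae1), against 55.0% and 52.6% as deposited. How far signals under the 40th percentile stood above background is not known, which limits PDF1.1, PDF2.5 and the 6 untested relatives.

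Over all tested probe sets, same-numbered arrays did not deviate together (correlations between -0.147 and 0.141), so no pairing was modelled. Such correlations cannot exclude a pairing that touches few genes. For PDF1.2b between iae2 and B1798, the SE was 0.13 with the replicate number as a block and 0.18 without it. The same SEs held between iae2 and iae1, where the difference was 0.33 either way. With the replicate number as a block, the counts of calls were 2499 (iae2), 982 (iae1) and 2745 (iae2 minus iae1). Of 30 results on 5 relatives and 5 pathway genes, 25 kept their call, 2 lost it (EIN3 in iae2 and THI2.1 in iae1) and 3 gained it: PDF1.1 in iae2 (adjusted p = 0.0489) and OSM34 in iae2 (0.0328) and iae1 (0.0276), all from limma.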
